A study of Mus musculus with 16 samples.

Results

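The transforming growth factor beta (TGF-beta) system of the mouse retina was described through 10 genes, all 10 found by gene symbol among the 43280 symbols counted in each library. They are the ligands Tgfb1, Tgfb2 and Tgfb3, the signalling receptors Tgfbr1, Tgfbr2 and Acvrl1, the co-receptors endoglin (Eng), Tgfbr3 and Tgfbr3l, and the TGF-beta-induced matrix protein Tgfbi. Whole-retina RNA came from wild-type C57BL/6J mice with oxygen-induced retinopathy (OIR), kept in 75% oxygen from postnatal day 7 (P7) to P12 and in 21% oxygen afterwards, and from control mice of the same strain and genotype kept in 21% oxygen throughout. The groups were OIR at P14 (2 libraries), P17 (3) and P30 (3), and control at P14 (2), P17 (3) and P30 (3), which makes 16 libraries of 26077663 to 41716971 counted reads. The genes were chosen with earlier results of these data known, and a fall of Tgfbr3l after P14 in control retinas was part of that choice, so changes between control ages are given as values with no test.

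TGF-beta ligands are secreted in a latent form, bound to their propeptide and stored in the matrix, and act once released. The ligand binds the type II receptor Tgfbr2, which then activates a type I receptor. Tgfbr1 (ALK5) signals through Smad2 and Smad3, while Acvrl1 (ALK1), found mainly on endothelium and bound most tightly by BMP9 and BMP10, signals through Smad1 and Smad5. Endoglin is an endothelial co-receptor of the same branch, and in humans loss of ENG or ACVRL1 causes hereditary haemorrhagic telangiectasia, a disease of malformed vessels. In OIR, high oxygen prunes the growing retinal capillaries, and after the return to room air the ischaemic retina forms preretinal vessel tufts that later regress.

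Promoter sequence is shown for the genes whose levels differed most, so that the 4 that rose together in OIR at P17 and have an entry can be set beside Tgfbr3l, whose level differed by age, and Tgfb2, the ligand with the most reads. Each line gives bases before the RefSeq transcription start on the gene's own strand (RefSeq table, GRCm38.p6), which had an entry for 7 of the 10 genes and none for Tgfb3, Acvrl1 and Tgfbr3. The windows are chr7:25686752-25687001 for Tgfb1 (plus strand), chr1:186705990-186706239 for Tgfb2 (minus), chr9:116175364-116175613 for Tgfbr2 (minus), chr2:32646345-32646594 for Eng (plus), chr8:4247964-4248213 for Tgfbr3l (plus) and, cut to the 187 bases outside the annotated gene, chr13:56609336-56609522 for Tgfbi (plus). Capitals mark matches on either strand to GGGCGG (the GC box), CAGAC (a SMAD binding box) or ACGTG (the core of the hypoxia response element, which the E-box CACGTG also holds).
Tgfb1: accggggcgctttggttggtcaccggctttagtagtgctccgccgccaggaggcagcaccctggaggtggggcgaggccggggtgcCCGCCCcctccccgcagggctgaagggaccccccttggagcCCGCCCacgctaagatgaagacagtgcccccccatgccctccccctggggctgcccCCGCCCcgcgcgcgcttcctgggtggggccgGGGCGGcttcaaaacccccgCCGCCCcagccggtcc
Tgfbr2: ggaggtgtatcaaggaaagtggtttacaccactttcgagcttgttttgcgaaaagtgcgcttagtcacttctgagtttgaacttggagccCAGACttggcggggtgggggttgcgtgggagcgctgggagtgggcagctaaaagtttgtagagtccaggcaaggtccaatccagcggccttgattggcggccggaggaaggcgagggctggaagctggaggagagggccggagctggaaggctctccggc
Eng: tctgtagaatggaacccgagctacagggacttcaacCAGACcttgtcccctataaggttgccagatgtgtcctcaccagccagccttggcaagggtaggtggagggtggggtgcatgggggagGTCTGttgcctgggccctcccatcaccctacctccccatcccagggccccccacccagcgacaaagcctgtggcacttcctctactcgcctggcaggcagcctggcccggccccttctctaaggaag
Tgfbi: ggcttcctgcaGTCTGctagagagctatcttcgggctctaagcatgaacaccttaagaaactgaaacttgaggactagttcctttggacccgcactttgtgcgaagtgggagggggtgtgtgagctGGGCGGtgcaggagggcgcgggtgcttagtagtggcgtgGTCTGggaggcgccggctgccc
Tgfbr3l: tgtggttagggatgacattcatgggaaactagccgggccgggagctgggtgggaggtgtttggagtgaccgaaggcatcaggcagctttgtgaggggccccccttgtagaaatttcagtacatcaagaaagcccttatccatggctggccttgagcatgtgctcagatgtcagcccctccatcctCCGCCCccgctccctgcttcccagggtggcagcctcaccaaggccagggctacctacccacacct
Tgfb2: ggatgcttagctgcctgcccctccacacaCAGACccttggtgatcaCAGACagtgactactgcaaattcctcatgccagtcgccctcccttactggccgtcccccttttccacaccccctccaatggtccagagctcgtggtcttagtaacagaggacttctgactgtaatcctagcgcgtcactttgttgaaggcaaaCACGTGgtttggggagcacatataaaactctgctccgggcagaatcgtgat
Counted over 250 bases, the Tgfb1 promoter held 5 GC boxes, and 32.74% of the 32851 mouse promoters in the table held at least 1. The SMAD box matched at 2 places in Eng, 2 in Tgfbi, 2 in Tgfb2 and 1 in Tgfbr2, against 42.19% of all promoters with a match. The pair of ACGTG matches in Tgfb2 is 1 CACGTG run read on its 2 strands, and 16.57% of all promoters held an ACGTG. The AP-1 site TGANTCA was found in none of the 7 genes' windows and in 6.749% of all promoters. The 4 genes that rose together share no single one of these letter strings, since Tgfb1 has no SMAD box and Eng and Tgfbr2 have no GC box.

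Levels are CPM, read counts relative to library size, scaled by TMM to offset differences in library composition. To compare genes with each other, CPM was divided by the exon length in kilobases (GENCODE M21). On this scale Tgfb2 led at P17, with 20.6 ± 1.75 CPM per kb in OIR retinas and 18.3 ± 0.670 in control retinas (SD, n = 3 each). Eng had 18.9 ± 3.81 CPM per kb in OIR and 6.77 ± 1.42 in control retinas at P17, next to Tgfb2 in OIR and below Tgfb3 (7.71 ± 0.923 in OIR, 8.64 ± 0.925 in control) in control retinas. Tgfbr1 stood at 4.03 ± 0.354 CPM per kb in OIR and 4.06 ± 0.0497 in control retinas. Below it in control retinas at P17 came Acvrl1, Tgfbr2, Tgfb1, Tgfbr3, Tgfbi and Tgfbr3l, between 2.38 and 0.440 CPM per kb.

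A few features of the libraries bear on these genes. At P17 all 3 OIR libraries had Xist, transcribed from the inactive X chromosome of females, at 114 to 158 CPM and Ddx3y, a Y-linked gene, at 0 to 1 reads, while all 3 control libraries had Xist at 0.104 CPM or less and Ddx3y at 25.8 to 33.3 CPM. Sex and OIR therefore cannot be told apart within P17. High Xist was also found in control replicate 2 at P14 and in OIR replicate 2 at P30. Both OIR libraries at P14 looked male, with Xist at 0.266 and 0.113 CPM and Ddx3y at 35.9 and 40.0 CPM. Sex and age therefore cannot be told apart between OIR at P14 and P17. OIR replicates 1 and 3 at P30 also looked male (Ddx3y at 23.1 and 18.5 CPM). Sex thus also changed with age between OIR at P17 and P30, while all control libraries at these ages looked male. Lens genes took 8.26%, 6.01% and 0.360% of reads in the OIR libraries at P17, against 0.0346% to 0.627% in control. At P30 they took 3.30% to 7.71% in OIR and 5.32% to 8.34% in control. At P14 they took 0.00117% and 0.00103% in OIR and 0.176% and 0.00508% in control. Lens reads thus differed by age as well, which bears on comparisons between ages. OIR replicate 1 at P14 held reads of corneal epithelium, with Krt12 at 147 CPM, against 0.255 CPM in OIR replicate 2 and 0.940 and 2.10 CPM in control at that age. Nothing says that replicates came from separate mice, so the tests measure the spread between libraries only.

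**Figure D1:**
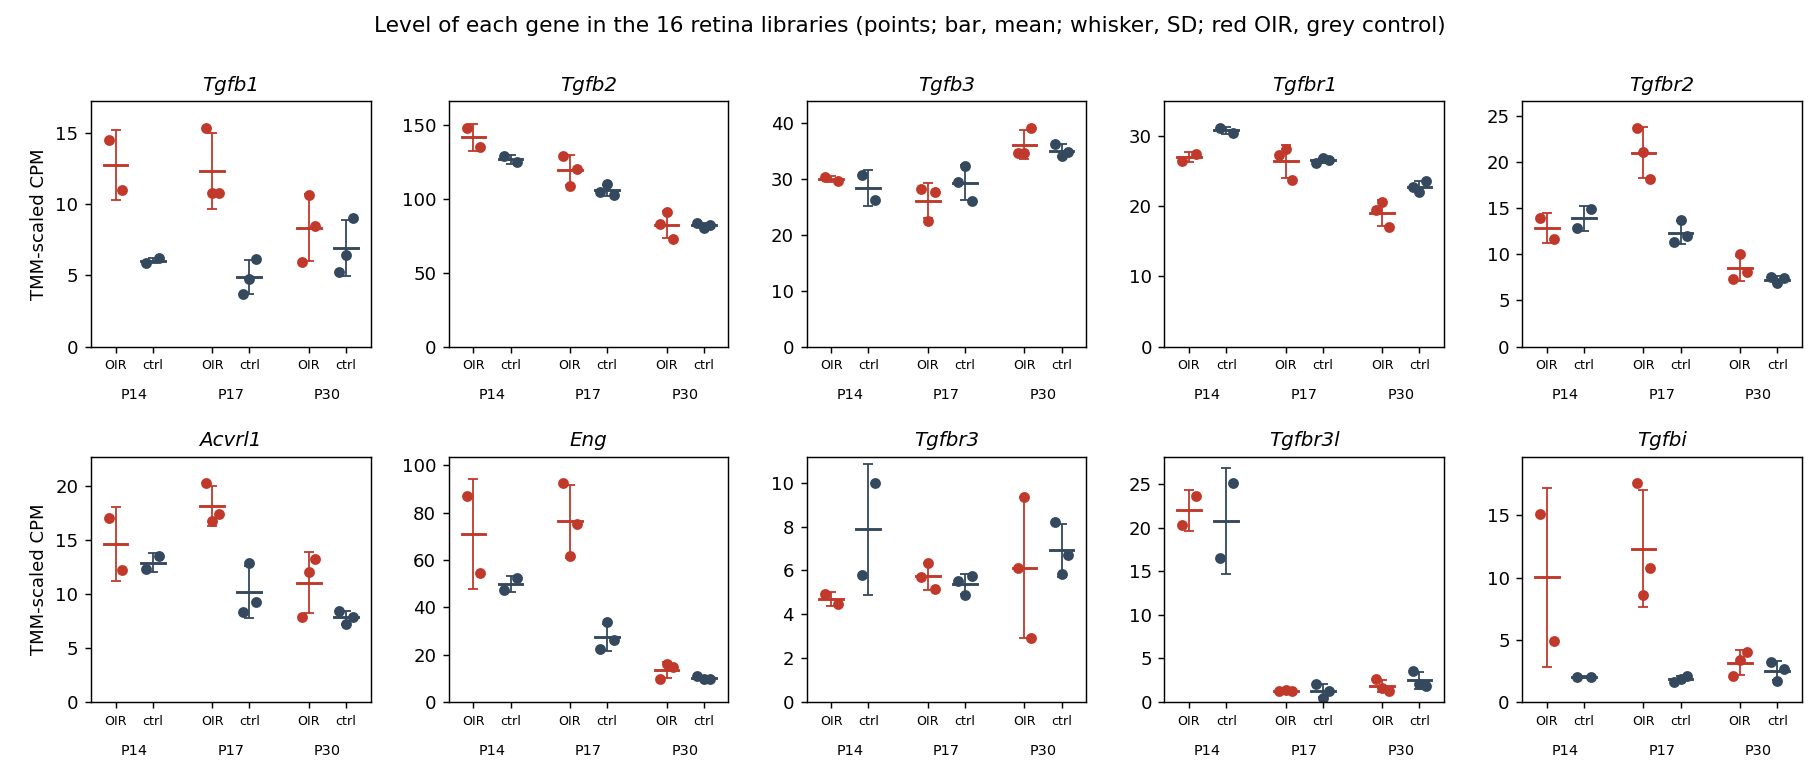
TMM-scaled CPM of each of the 10 genes by group, with OIR left of control at each age; points are libraries, bars group means and whiskers SD (n = 2 at P14, 3 at P17 and P30). Tgfb1, Tgfbr2, Acvrl1, Eng and Tgfbi lie above control in every OIR library at P17, and Tgfbr3l is low in every library after P14.

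At P17, the age at which preretinal tufts are usually at their height in this model, 5 of the 10 genes rose in OIR retinas, namely Tgfb1, Tgfbr2, Acvrl1, Eng and Tgfbi, and 0 fell (edgeR quasi-likelihood test, Benjamini-Hochberg adjusted p under 0.05 over 19905 genes). Over all tested genes 7.81% were called higher at this age. The same 5 genes were those whose OIR libraries all lay above all control libraries, which held for 15.9% of all genes. The median log2 fold change of the 10 genes was 0.47, against 0.000267 over all tested genes. With the Y-linked level as a covariate, edgeR called 0 of the 10 (5 at an unadjusted p under 0.05), with log2 fold changes of 1.00 for Tgfb1, 0.48 for Tgfbr2, 0.65 for Acvrl1, 1.18 for Eng and 2.64 for Tgfbi and adjusted p from 0.0727 to 0.340. Neither P17 group held both sexes, so the effect of this covariate was set mainly by control at P14 and OIR at P30, which did. It therefore cannot separate sex from OIR at P17. Leaving out any 1 of the 16 libraries kept 5 calls, and without the lens-rich OIR replicates 1 and 2 together 3 remained called (Tgfb1, Eng and Tgfbi).

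**Figure D2:**
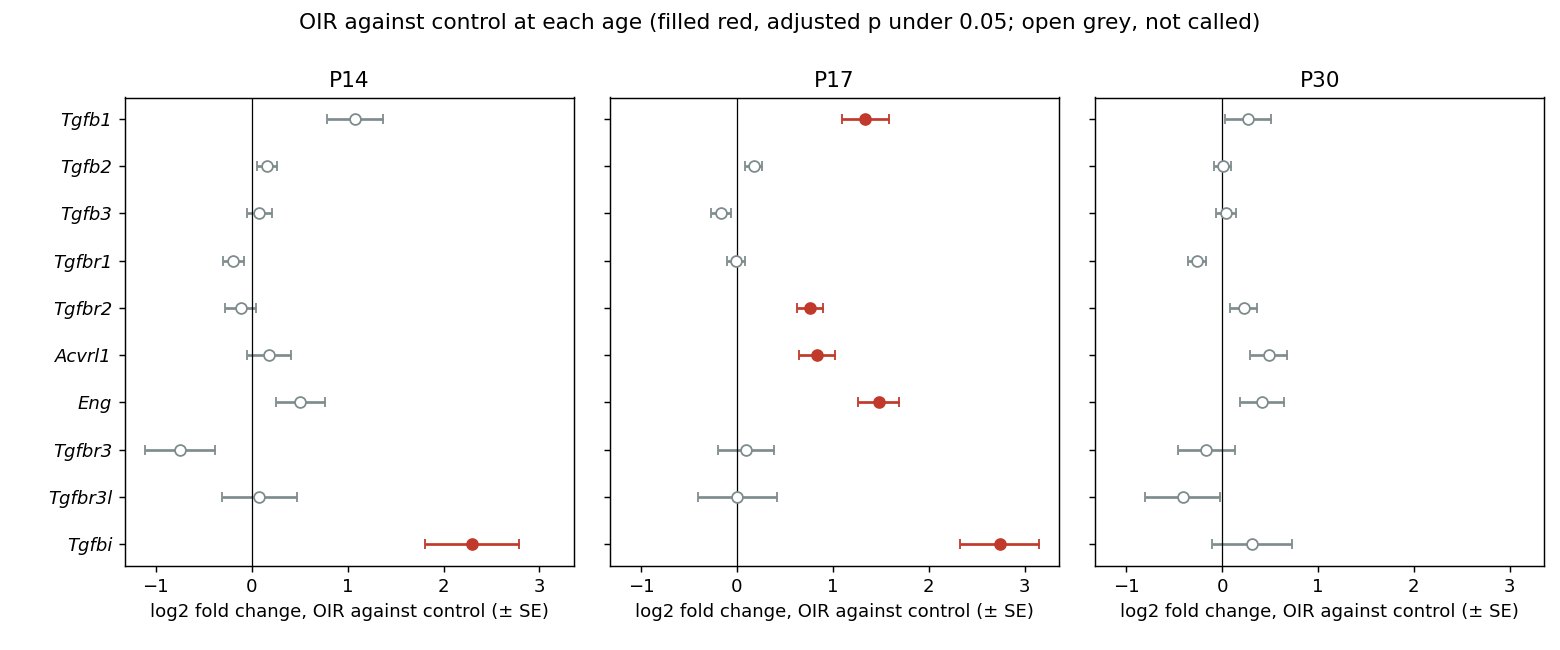
Log2 fold change of OIR against control with its SE for the 10 genes at P14, P17 and P30 (edgeR). Filled points passed an adjusted p of 0.05: Tgfbi at P14, 5 genes at P17 and 0 at P30.

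Among the ligands, only Tgfb1 was called between OIR and control, and only at P17. Tgfb1 (chr7:25687002-25705077, GRCm38), the isoform best known from platelets and immune cells, had 15.4, 10.8 and 10.8 CPM in OIR retinas at P17, against 3.72, 4.78 and 6.16 CPM in control. The groups did not overlap. The log2 fold change was 1.34 (SE 0.242, adjusted p = 0.00139). At P14 it had 14.5 and 11 CPM in OIR, against 5.90 and 6.19 CPM in control. Both OIR libraries again lay above both controls, yet the change of 1.08 (SE 0.292) was not called by edgeR (adjusted p = 0.126), while DESeq2 called it (adjusted p = 0.0196). At P30 the values were 5.97, 10.6 and 8.49 CPM in OIR and 5.26, 6.46 and 9.05 CPM in control, with overlapping groups and a log2 fold change of 0.27 (SE 0.242, adjusted p = 0.503). The OIR effect on Tgfb1 was smaller at P30 than at P17 by 1.07 on the log2 scale (SE 0.341), which was not called (adjusted p = 0.0592). It was called without control replicate 3 at P17, control replicate 1 at P30 or OIR replicate 2 at P30 (adjusted p = 0.0395, 0.0431 and 0.0286), by DESeq2 (adjusted p = 0.0203) and with no count filter (adjusted p = 0.000264).

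Tgfb2 (chr1:186622792-186705989), the isoform most abundant in the fluids of the eye, ran downward with age in both conditions. OIR retinas had 148 and 135 CPM at P14, 129, 109 and 120 CPM at P17, and 83.1, 91.0 and 72.9 CPM at P30. Control retinas had 129 and 125 CPM at P14, 104, 110 and 103 CPM at P17, and 83.3, 80.3 and 82.3 CPM at P30. OIR and control overlapped at P17 and P30, and no age was called (log2 fold changes 0.16, 0.18 and 0.01, adjusted p = 0.747, 0.217 and 0.975). Within OIR retinas Tgfb2 fell at P17 against P14 by 0.25 (SE 0.0984, adjusted p = 0.0495) and at P30 against P17 by 0.54 (SE 0.0890, adjusted p = 0.000124). The first of these calls held in 8 of 29 alternatives and the second in 28 of 29. Its exons share 124 bases with the antisense gene Gm29491.

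Tgfb3 (chr12:86056745-86079041), the third isoform, had its highest mean level at P30 in both conditions. It had 30.3 and 29.6 CPM at P14, 28.1, 22.5 and 27.6 CPM at P17, and 34.6, 34.6 and 39.1 CPM at P30 in OIR retinas. Control retinas had 30.6 and 26.1 CPM, 29.5, 32.2 and 26.0 CPM, and 36.2, 34.1 and 34.7 CPM at the same ages. OIR and control overlapped at each age. Within OIR, Tgfb3 rose at P30 against P17 by 0.47 (SE 0.106, adjusted p = 0.00174), but by 0.18 with no call (adjusted p = 0.174) when libraries were scaled by their totals, a scaling that moved the median of all genes by -0.29 in that comparison, and by 0.35 with no call (adjusted p = 0.0939) without OIR replicates 1 and 2 at P17.

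Ligand reads were also compared as shares of their sum. Tgfb1 made up 7.78 ± 1.06% of the reads of the 3 ligands in OIR retinas at P17 and 3.51 ± 0.961% in control (SD, n = 3 each). At P14 its share was 6.90 ± 0.870% in OIR and 3.76 ± 0.268% in control (n = 2 each), and at P30 it was 6.56 ± 1.54% in OIR and 5.58 ± 1.5% in control. The shares of OIR and control libraries did not overlap at P14 or P17 and overlapped at P30. Tgfb2 held most ligand reads in every library, between 60.5% and 79.4%. Tgfb3 had its largest mean share at P30, with 28.6 ± 3.56% in OIR and 28.3 ± 0.744% in control.

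The type II receptor and the endothelial type I receptor rose in OIR at P17, and the general type I receptor was not called. Tgfbr2 (chr9:116084293-116175360), the ligand-binding type II kinase, had 23.7, 21.1 and 18.2 CPM in OIR retinas at P17, against 11.3, 13.7 and 12.0 CPM in control. All 3 OIR libraries were above all controls, with a log2 fold change of 0.76 (SE 0.134, adjusted p = 0.000896). At P14 it had 14.0 and 11.7 CPM in OIR, against 12.9 and 14.9 CPM in control, and at P30 it had 7.37, 10.002 and 8.08 CPM in OIR, against 7.53, 6.86 and 7.38 CPM in control. The groups overlapped at both of these ages, and neither change was called (log2 fold changes -0.12 and 0.23, adjusted p = 0.923 and 0.322). OIR retinas at P17 thus stood above all other groups, with no overlap with the next one, control at P14. Within OIR, Tgfbr2 rose at P17 against P14 by 0.71 (SE 0.152, adjusted p = 0.00112) and fell at P30 against P17 by 1.31 (SE 0.138, adjusted p = 1.55e-06). The first of these was not called with the lens covariate (0.36, adjusted p = 0.550), with the Y-linked covariate (0.40, adjusted p = 0.177) or without OIR replicates 1 and 2 at P17 (0.54, adjusted p = 0.0506). In control retinas the P17 level differed from P14 by -0.17 (SE 0.149) and the P30 level from P17 by -0.77 (SE 0.139), on the log2 scale. A test against a 1.5-fold change did not call the OIR effect at P17 (adjusted p = 0.529), nor did the fit without the lens-rich OIR replicates 1 and 2 (log2 fold change 0.57, adjusted p = 0.0806).

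Acvrl1 (chr15:101128522-101145336), the endothelial type I receptor, had 20.2, 16.7 and 17.3 CPM in OIR retinas at P17, against 8.29, 12.9 and 9.24 CPM in control. The groups did not overlap, and the log2 fold change was 0.84 (SE 0.188, adjusted p = 0.00589). It was 0.71 with the lens level as a covariate (adjusted p = 0.0507) and 0.79 without OIR replicates 1 and 2 (adjusted p = 0.103). At P14 it had 17.0 and 12.2 CPM in OIR, against 12.2 and 13.5 CPM in control, and at P30 it had 7.81, 12.0 and 13.2 CPM in OIR, against 8.42, 7.23 and 7.81 CPM in control. OIR replicate 1 at P30 lay among the controls, and the change there was 0.49 (SE 0.194, adjusted p = 0.119), called when that library was left out (0.69, adjusted p = 0.0261) and with no count filter (0.47, adjusted p = 0.0358). Within OIR, Acvrl1 fell at P30 against P17 by 0.72 (SE 0.189, adjusted p = 0.00521), which was not called with the Y-linked covariate (-0.61, adjusted p = 0.0592) or without OIR replicates 1 and 2 at P17 (-0.70, adjusted p = 0.0728). Its exons share 127 bases with the antisense gene Gm16031, and reads there cannot be assigned because the strand setting of the counting is not given in the sources used here.

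Tgfbr1 (chr4:47353222-47414931), the type I receptor of the Smad2 and Smad3 branch, was not called between OIR and control at any age. At P17 it had 27.2, 28.1 and 23.7 CPM in OIR retinas and 26.2, 26.8 and 26.5 CPM in control, a log2 fold change of -0.01 (SE 0.0912, adjusted p = 0.972). It had 26.4 and 27.5 CPM in OIR and 31.1 and 30.4 CPM in control at P14, and 19.4, 20.6 and 17.0 CPM in OIR and 22.7, 22.0 and 23.6 CPM in control at P30. At P14 and P30 every OIR library lay below every control library, by -0.19 (SE 0.112, adjusted p = 0.680) and -0.26 (SE 0.0931, adjusted p = 0.0866), and neither was called. At P30 Tgfbr1 was the only 1 of the 10 genes with every OIR library below every control library, which held for 14.3% of all genes. Within OIR it fell at P30 against P17 by 0.47 (SE 0.0925, adjusted p = 0.000568), which was not called without OIR replicates 1 and 2 at P17 (-0.36, adjusted p = 0.0540).

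Set against Tgfbr1, the reads of the other receptors shifted. There were 0.795 ± 0.0667 Tgfbr2 reads per Tgfbr1 read in OIR retinas at P17 and 0.465 ± 0.0409 in control (SD, n = 3 each). Acvrl1 had 0.690 ± 0.0820 reads per Tgfbr1 read in OIR and 0.381 ± 0.0862 in control at P17. Neither pair of groups overlapped at P17. At P14 the Tgfbr2 ratio was 0.476 ± 0.0728 in OIR and 0.451 ± 0.0522 in control, with overlap, and the Acvrl1 ratio 0.543 ± 0.141 in OIR and 0.418 ± 0.0348 in control, without overlap (n = 2 each). The nearest Acvrl1 ratios at P14 were almost equal, 0.4433 in OIR replicate 2 and 0.4423 in control replicate 2. At P30 the Tgfbr2 ratio was 0.447 ± 0.0580 in OIR and 0.319 ± 0.0117 in control, and the Acvrl1 ratio 0.587 ± 0.186 in OIR and 0.344 ± 0.0242 in control, both without overlap. These ratios were chosen after the levels were seen and are given with no test.

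Endoglin was the co-receptor with the largest OIR effect. Eng (chr2:32646595-32682669) had 92.4, 61.6 and 75.0 CPM in OIR retinas at P17, against 22.4, 33.7 and 26.1 CPM in control. The lowest OIR library lay well above the highest control, and the log2 fold change was 1.48 (SE 0.216, adjusted p = 0.000465). At P14 it had 87.1 and 54.3 CPM in OIR, against 47.3 and 52.2 CPM in control, where OIR replicate 2 lay just above the controls and the change of 0.51 (SE 0.258) was not called (adjusted p = 0.616). At P30 it had 9.80, 16.2 and 14.6 CPM in OIR, against 11.1, 9.58 and 9.68 CPM in control, with overlap and a change of 0.41 (SE 0.229, adjusted p = 0.269). Within OIR, the difference of Eng at P17 against P14 was 0.11 and not called (SE 0.235, adjusted p = 0.730), and Eng fell at P30 against P17 by 2.50 (SE 0.227, adjusted p = 1.94e-06). In control retinas the level was lower at each later age, by -0.86 (SE 0.234) at P17 against P14 and by -1.43 (SE 0.225) at P30 against P17. From high to low the groups ran OIR at P17, OIR at P14, control at P14, control at P17, OIR at P30 and control at P30, with overlap only within the first and the last pair. Its exons share 61 bases with Fpgs on the other strand.

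Endothelial and mural markers moved with Eng, Acvrl1 and Tgfbr2. Of 15 endothelial markers 10 rose and 0 fell in OIR at P17, with a summed level of 561 to 694 CPM in OIR and 392.3 to 464 CPM in control. Of 10 mural markers 7 rose and 0 fell, with 325 to 438 CPM in OIR and 168 to 194 CPM in control. Pecam1 and Cdh5, which define endothelium, were detected in all 16 libraries, and the part of these cells in the change of Tgfbr2 was not tested. In whole retina more cells of a type and more RNA per cell cannot be told apart. Relative to the mean log2 level of the 15 endothelial markers, Eng stood at 1.56 ± 0.167 in OIR and 1.01 ± 0.136 in control at P17 (SD, n = 3 each), so every OIR library exceeded every control library, by 0.55 on average (two-sided exact permutation p = 0.1, the smallest that 3 against 3 can give). Against Pecam1, Cdh5 and Tie1 alone the difference was 0.33. Acvrl1 relative to the same 15 markers was -0.50 ± 0.0705 in OIR and -0.43 ± 0.175 in control at P17, a difference of -0.07 with overlapping groups (two-sided exact permutation p = 0.7). Against Pecam1, Cdh5 and Tie1 alone it was -0.29, with every OIR library below every control library (two-sided exact permutation p = 0.1, again the smallest possible). The number of Eng reads per Acvrl1 read was 4.19 ± 0.459 in OIR and 2.71 ± 0.103 in control at P17, with no overlap, and 1.24 ± 0.121 in OIR and 1.29 ± 0.0491 in control at P30, with overlap.

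**Figure D3:**
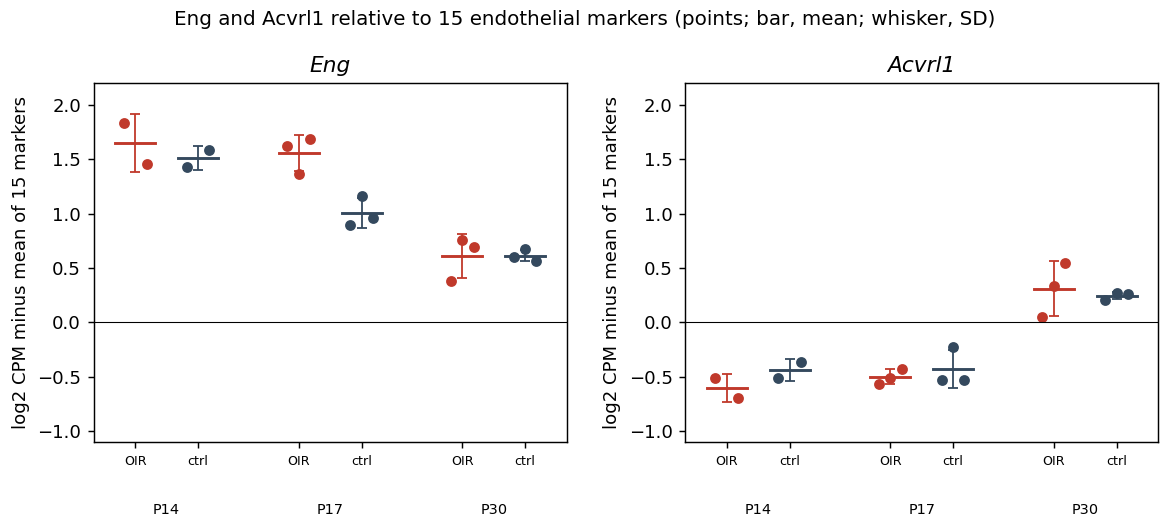
Log2 CPM of Eng (left) and Acvrl1 (right) minus the mean log2 CPM of 15 endothelial markers, by group; points are libraries, bars means and whiskers SD. For Eng the OIR libraries at P17 lie above the control libraries by 0.55 on average, and for Acvrl1 the groups overlap at P17 and P30, while at P14 both OIR libraries lie below both control libraries.

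Tgfbr3 (chr5:107106570-107289629), or betaglycan, which presents Tgfb2 to the signalling receptors, stayed low and was not called at any age. It had 4.92 and 4.47 CPM in OIR and 5.77 and 9.98 CPM in control at P14, where the OIR libraries lay below the controls (log2 fold change -0.75, SE 0.363, adjusted p = 0.570). At P17 it had 5.69, 6.35 and 5.14 CPM in OIR and 5.50, 4.87 and 5.75 CPM in control, and at P30 it had 6.10, 9.34 and 2.91 CPM in OIR and 8.22, 5.85 and 6.68 CPM in control. The groups overlapped at both later ages. The number of Eng reads per Tgfbr3 read was 13.5 ± 3.40 in OIR and 5.18 ± 1.53 in control at P17, without overlap, and 2.79 ± 1.93 in OIR and 1.48 ± 0.146 in control at P30, with overlap.

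Tgfbr3l (chr8:4248214-4251423), a membrane protein related to betaglycan and known in the mouse pituitary as a co-receptor of inhibin B, differed by age, with no call between OIR and control. In OIR retinas it had 20.3 and 23.7 CPM at P14, 1.32, 1.34 and 1.26 CPM at P17, and 2.66, 1.64 and 1.23 CPM at P30. In control retinas it had 16.5 and 25.1 CPM at P14, 2.04, 0.515 and 1.32 CPM at P17, and 3.59, 2.05 and 1.83 CPM at P30. Every library at P14 lay far above every later library, and OIR and control overlapped at each age (log2 fold changes 0.08, 0.01 and -0.41, adjusted p = 0.987, 0.997 and 0.541). In the OIR libraries Tgfbr3l was lower at P17 than at P14 by 4.07 on the log2 scale (SE 0.399), against -4.0 (SE 0.403) in control. The gene was chosen with its fall in control known, so the fall in OIR is given as a value only. Many genes differed by age within OIR. Of all tested genes, 45.5% were called between OIR at P17 and P14 and 42.5% between OIR at P30 and P17. With the lens level as a covariate the fall in OIR was 2.55 (SE 0.810). The later values rest on few reads, 18 to 109 per library, against 611 to 994 at P14. The exons of Tgfbr3l share 1530 bases with Gm49320 on the same strand, a gene that was not counted separately.

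The genes whose log2 level across the 16 libraries was most like that of Tgfbr3l were AI480526 (Pearson r = 0.994) and Leng8 (r = 0.991), out of 14407 genes searched. Leng8 averaged 699 ± 37.3 CPM in OIR and 759 ± 165 CPM in control at P14 (n = 2 each), and 52.8 ± 3.33 CPM in OIR and 60.0 ± 19.9 CPM in control at P17. AI480526 averaged 104 ± 9.48 CPM in OIR and 101 ± 19.1 CPM in control at P14, and 8.51 ± 1.03 CPM in OIR and 9.73 ± 4.43 CPM in control at P17. All of these genes were thus high in the same 4 libraries. Eng was most like Lama4, a laminin chain of vessel walls (r = 0.989), and Cdh5, the cadherin of endothelial junctions (r = 0.988). Tgfbr2 was most like Rgs5, a pericyte gene (r = 0.972). Acvrl1 was most like Cmtm3 (r = 0.941), with Vwf, the endothelial von Willebrand factor, among its nearest 3 (r = 0.925). Tgfb1 was most like Cdca3, a cell cycle gene (r = 0.909), and Stab1, a scavenger receptor (r = 0.905). The points of these correlations share library, age and depth, so the values describe likeness only.

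Tgfbi (chr13:56609523-56639562), a secreted matrix protein induced by TGF-beta and abundant in the cornea, had the largest OIR effect of the 10 genes. It had 17.6, 8.61 and 10.8 CPM in OIR retinas at P17, against 1.58, 1.86 and 2.11 CPM in control. The groups were far apart, with a log2 fold change of 2.74 (SE 0.409, adjusted p = 0.000587). At P14 it had 15.1 and 4.90 CPM in OIR, against 2.01 and 2.05 CPM in control, a change of 2.30 (SE 0.491, adjusted p = 0.0484), and it was the only 1 of the 10 genes called at that age, when 0.723% of all genes were called higher. The high OIR library at P14 is the one with corneal Krt12. Without it the change was 1.27 and not called (adjusted p = 0.433), and in all the P14 call held in 10 of 30 alternatives. At P17 Krt12 was at 0.277 to 0.519 CPM in OIR and 0.336 to 0.487 CPM in control, with overlap. Of 10 corneal and scleral markers 8 were tested at P17, of which 1 rose and 0 fell. Their summed level was 156 to 191 CPM in OIR and 148 to 169.6 CPM in control. Kera, the corneal keratocan, had 0 reads in all 3 OIR libraries and only 0 to 8 in control. The matrix proteoglycans Ogn (19.0, 19.8 and 7.51 CPM in OIR, 4.60, 4.12 and 6.23 CPM in control) and Fmod (35.3, 53.3 and 38.8 CPM in OIR, 25.5, 17.9 and 32.8 CPM in control) were higher in every OIR library. Col8a1, of the same list, was lower in every OIR library (53.9, 33.4 and 36.9 CPM in OIR, 62.5, 56.7 and 74.0 CPM in control). The part of the tissue behind these markers in the change of Tgfbi was not tested. At P30 Tgfbi had 2.05, 3.39 and 4.0 CPM in OIR, against 3.19, 1.71 and 2.63 CPM in control, with overlap (log2 fold change 0.31, SE 0.417, adjusted p = 0.675). Within OIR it fell at P30 against P17 by 1.98 (SE 0.395, adjusted p = 0.00118). Between OIR at P17 and P14 the difference was 0.30 and not called (SE 0.411, adjusted p = 0.574), and 1.33 with a call (adjusted p = 0.0207) without that corneal library. Most microglial markers moved with Tgfbi and Tgfb1 at P17. Of 15 such markers 11 rose and 0 fell, with a summed level of 247 to 307 CPM in OIR and 117 to 151 CPM in control. P2ry12, of the same list, overlapped, with 6.09, 5.29 and 3.52 CPM in OIR and 4.39, 5.73 and 3.67 CPM in control. The part of microglia in either result was not tested.

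**Figure D4:**
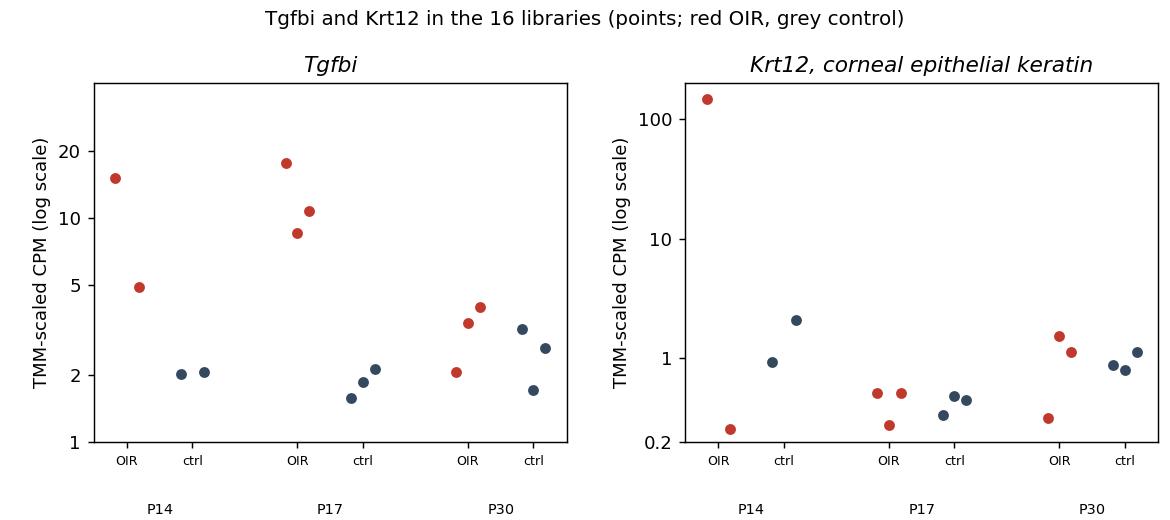
TMM-scaled CPM of Tgfbi (left) and of the corneal keratin Krt12 (right) on log axes, by group, with OIR left of control; points are libraries. The OIR library at P14 with 15.1 CPM of Tgfbi is also the one with 147 CPM of Krt12, while at P17 Tgfbi is high in all 3 OIR libraries and Krt12 is at 0.519 CPM or less.

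Across ages, the OIR effect changed for few of the 10 genes by a test of the difference itself. Between P17 and P30 it fell for Eng by 1.07 (SE 0.312, adjusted p = 0.0477) and for Tgfbi by 2.42 (SE 0.579, adjusted p = 0.0203), and 3.84% of all genes were called in that direction. The Eng call was lost on leaving out any of 11 libraries (-1.13 to -0.87, adjusted p 0.0584 to 0.0992) and held in 11 of 29 alternatives. That of Tgfbi held in 21 of 29 and was lost without control replicate 2 at P17 (adjusted p = 0.0519) or control replicate 1 at P30 (adjusted p = 0.0503). That of Tgfbr2 was called when OIR replicate 2 at P30 was left out (-0.68, adjusted p = 0.0360). With the Y-linked level as a covariate neither the Eng nor the Tgfbi difference was called (-0.89, adjusted p = 0.178 and -2.36, adjusted p = 0.0832). Sex also changed between P17 and P30 in OIR and not in control, so it cannot be fully told apart from these differences. Between P14 and P17 edgeR and limma-voom called 0 of the 10 genes (3 at an unadjusted p under 0.05 in edgeR) and 0 of all 19905 genes were called by edgeR, while DESeq2 called Tgfbr2 (0.88, adjusted p = 0.0197). At P30 edgeR, DESeq2 and limma-voom called 0 of the 10 genes between OIR and control (2 at an unadjusted p under 0.05 in edgeR), when 8.6% of all genes were called. Within OIR, 7 of the 10 genes were called between P30 and P17, 1 higher (Tgfb3) and 6 lower (Tgfb2, Tgfbr1, Tgfbr2, Acvrl1, Eng and Tgfbi), against 42.5% of all genes called in either direction. In control retinas, with no test, the difference had the same sign for Tgfb3 (0.26), Tgfb2 (-0.37), Tgfbr1 (-0.22), Tgfbr2 (-0.77), Acvrl1 (-0.37) and Eng (-1.43). For Tgfbi the control difference had the other sign (0.44, SE 0.426).

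The wider pathway was read from 6 lists with 69 genes, of which 66 were tested (Itgb6, Bmp10 and Acvr1c had too few reads). The lists were chosen with earlier results of these data known, so their counts are a description and no independent support. At P17, 14 of the 66 rose and 1 fell, against 7.81% of all genes called higher and 6.76% called lower. The rises lay mostly in the list of transcriptional targets, where 8 of 13 rose, with a median log2 fold change of 1.29. These were Gadd45b, a stress-response gene (2.67, SE 0.229), the smooth muscle genes Acta2 (2.77, SE 0.735) and Tagln (2.46, SE 0.583), the matrix genes Fn1 (1.98, SE 0.217) and Col3a1 (1.53, SE 0.455), Ctgf, a matricellular growth factor (1.29, SE 0.132), Cdkn1a, a cell cycle inhibitor (1.22, SE 0.214), and Id1, a target of the Smad1 and Smad5 branch (0.57, SE 0.115). Their adjusted p ran from 2.95e-06 to 0.0439. Fn1 averaged 183 ± 43.6 CPM in OIR and 46.4 ± 4.25 CPM in control, and Gadd45b 22.5 ± 6.58 CPM in OIR and 3.53 ± 0.258 CPM in control (SD, n = 3 each). Mural, microglial and endothelial cells also express many of these genes, most markers of all 3 moved with them, and their part in these rises was not tested. With the Y-linked covariate 4 of the 66 rose and 1 fell.

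Of the genes that store and release latent ligand, 1 of 11 rose at P17, Lrrc32 (GARP), which docks latent TGF-beta on the cell surface, with 9.56 ± 2.44 CPM in OIR and 2.12 ± 0.327 CPM in control (2.17, SE 0.289, adjusted p = 0.000107). Of 16 regulators 4 rose, namely Bgn, a proteoglycan that binds TGF-beta (2.07, SE 0.308), Fstl3, a secreted activin inhibitor (1.37, SE 0.182), and the nuclear corepressors Tgif1 (1.08, SE 0.198) and Tgif2 (0.61, SE 0.20). Of 7 other receptors of the family Bmpr1b rose (0.76, SE 0.128), and of 11 BMP, GDF and activin ligands Gdf11 fell by 0.68 (SE 0.0903). The edgeR test called 0 of 8 Smads at P17, with 1 at an unadjusted p under 0.05.

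At P14, 2 of the 66 genes rose and 0 fell, against 0.723% of all genes called higher, namely Ctgf (0.76, SE 0.162) and Bmpr1b (0.79, SE 0.158). Without OIR replicate 1, the library with corneal reads, 0 of the 66 were called, and the same held without control replicate 2 at P14. Without OIR replicate 2 at P14, 1 rose, and without control replicate 1 at P14, 0 rose and 3 fell. At P30, 4 rose and 2 fell, so that 6 of 66 were called, close to the 8.6% of all genes. Of the 15 microglial markers 10 rose at P30, with a summed level of 124 to 240.2 CPM in OIR and 96.1 to 116 CPM in control, and of the 15 endothelial markers 4 rose, and their part in these changes was not tested. Gadd45b (1.28, SE 0.216), Fn1 (0.77, SE 0.216), Fstl3 (0.57, SE 0.175) and Ctgf (0.48, SE 0.130) rose, while Cdkn1a fell by 1.06 (SE 0.226) and Bmpr1a by 0.46 (SE 0.0920). Cdkn1a was thus higher in OIR at P17 and lower at P30. Between 2 and 3 of the 66 were called at P30 when control replicate 1 or 2 or OIR replicate 2 of that age was left out.

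**Figure D5:**
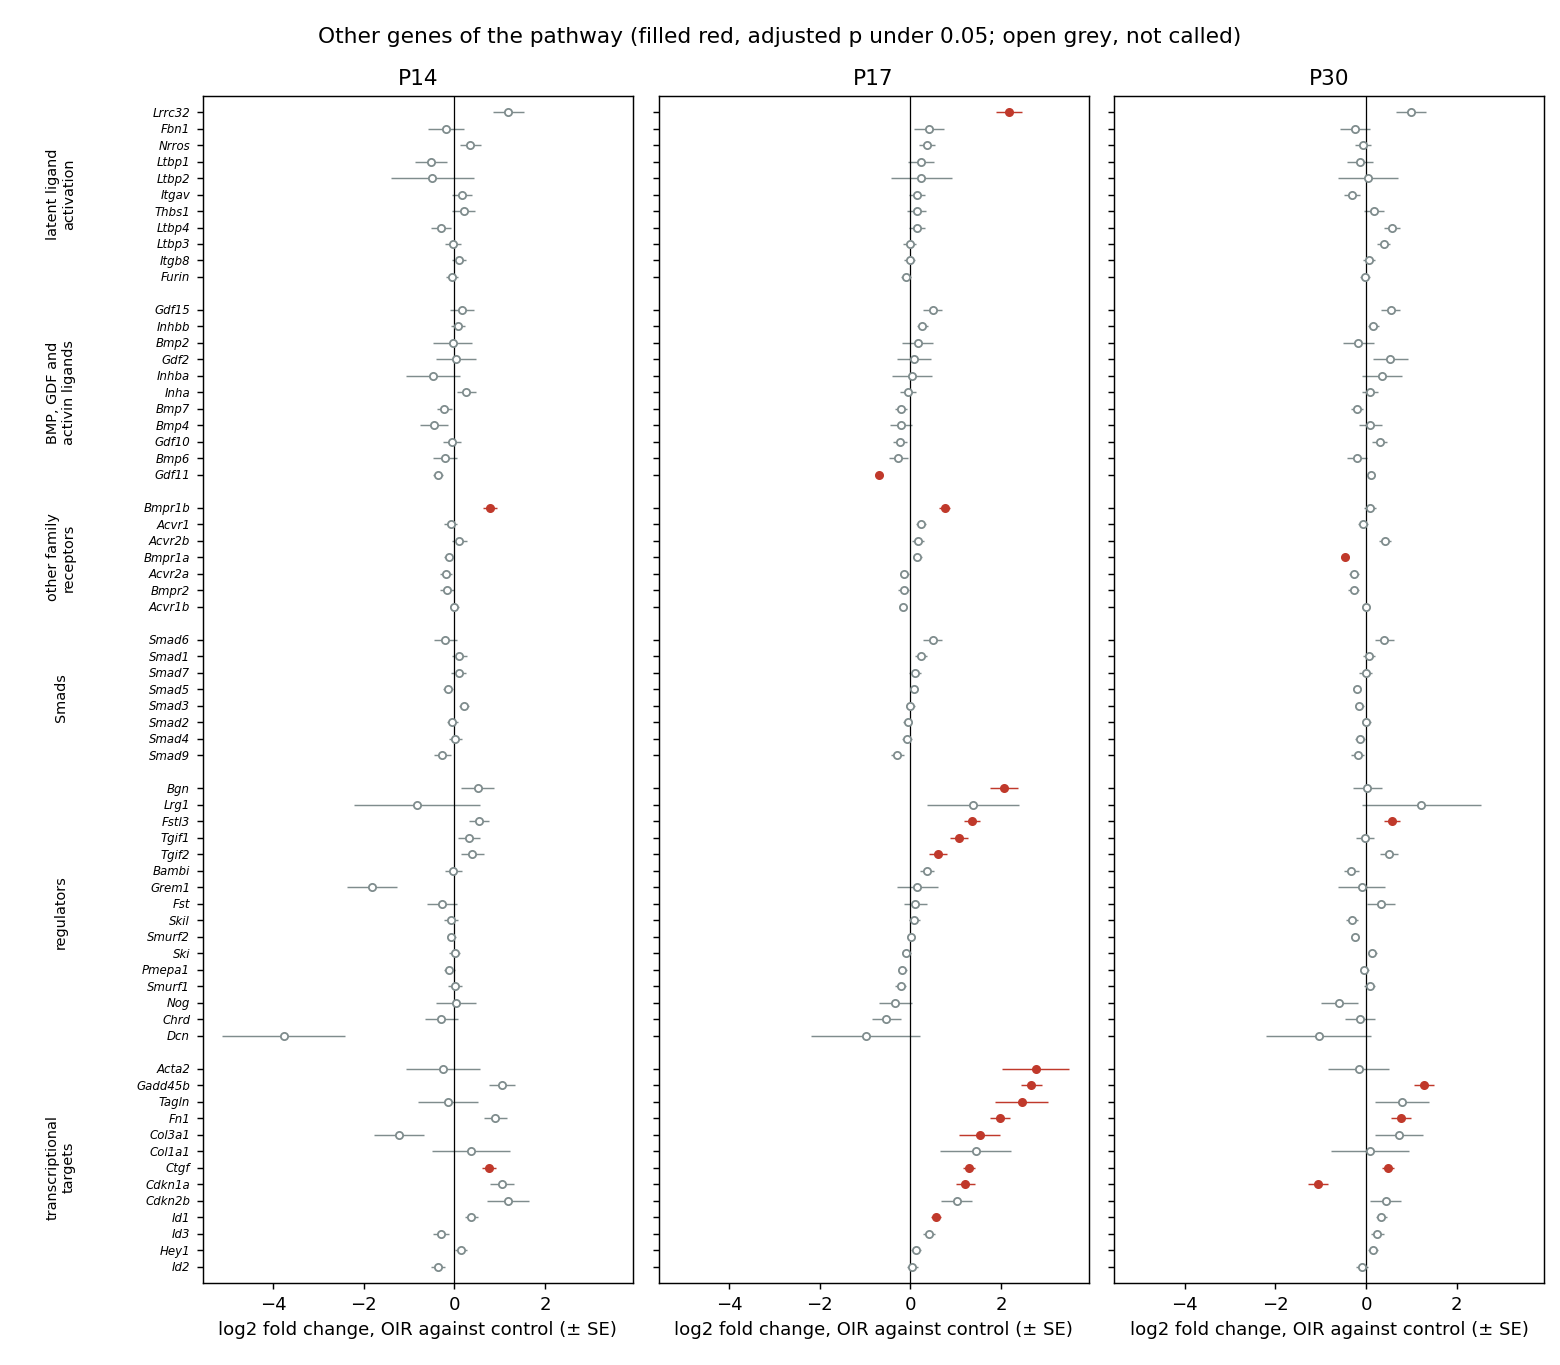
Log2 fold change of OIR against control with its SE for 66 other genes of the pathway at P14, P17 and P30, grouped by list and ordered within a list by the P17 value; filled points passed an adjusted p of 0.05. The 8 called transcriptional targets at P17 lie between 0.57 and 2.77, and 0 of the 8 Smads were called.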

How the data were processed

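Per the labels' protocols, RNA of dissected retina was enriched for mRNA, made into Ion Total RNA-seq Kit v2 libraries and sequenced on an Ion Proton. Torrent Suite 5.4.0, STAR, Bowtie2 and HTSeq then gave counts on mm10. The deposited values are raw counts per gene, with no normalization by the authors, and no source used here names other tool versions, the annotation release or the strand setting. Counts were tested with edgeR 4.0.16 (robust quasi-likelihood, TMM, R 4.3.3) in 1 fit of 16 libraries and 6 groups with 10 residual degrees of freedom. Genes passed filterByExpr (minimum count 10, minimum total 15), which left 19905, and p-values were Benjamini-Hochberg adjusted over all of them. SE is the absolute log2 fold change divided by the root of F. All 10 genes passed the filter. No replicate was another library repeated (chi-square per degree of freedom 14.3 or more). Alternatives were RLE scaling, library totals, 2 other filters, DESeq2 1.42.0, limma-voom (limma 3.58.1), a replicate block, lens and Y-linked covariates, fits of the compared groups alone, a stricter p, a 1.5-fold test and libraries left out. The steps were tested on simulated data. The members and lists were chosen with earlier results of these data known, and the receptor ratios after the levels were seen. One gene of the target list is not reported here and was left out of its counts. Every member is named, other pathway genes where called, and the most alike genes by Pearson r over log2 CPM.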

Additional observations from a re-analysis of the deposited data

Results flagged for a closer look

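The OIR effect was called different between ages for 2 of the 10 genes by a test of the difference itself (P30 minus P17, edgeR). Both fell, and 3.84% of all genes were called in that direction. For Eng the difference was -1.07 on the log2 scale (adjusted p = 0.0477), with an OIR effect of 0.41 at P30 and 1.48 at P17. For Tgfbi it was -2.42 (adjusted p = 0.0203), with 0.31 at P30 and 2.74 at P17. At P17 every OIR library lay above every control library for each of these genes, and at P30 the groups overlapped. The Eng call held in 11 of 29 alternatives and that of Tgfbi in 21 of 29. Neither was called with limma-voom, the lens covariate or the Y-linked covariate. The OIR libraries looked female at P17 and partly male at P30, so sex also differed between these ages.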

How the results depend on the processing

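At P17 the count of 5 called members was 0 with the Y-linked covariate, 3 without the OIR P17 libraries 1 and 2 together, 3 against a 1.5-fold change and 5 to 5 when 1 library was left out. At P14 the count of 1 was 0 with RLE scaling, limma-voom, the replicate block, the lens or Y-linked covariate, an adjusted p under 0.01 and the 1.5-fold test, 2 with DESeq2, 3 with no count filter and 0 to 1 with 1 library left out. At P30 the count of 0 was 2 with no count filter and 0 to 1 with 1 library left out. For the difference P17 minus P14 the count of 0 was 2 with no count filter and 1 with DESeq2 (0 to 0 with 1 library left out). For P30 minus P17 the count of 2 was 3 with DESeq2 or no count filter, 1 with the replicate block, 0 with limma-voom, either covariate, the 2 OIR P17 libraries left out, the stricter p or the 1.5-fold test, and 1 to 4 with 1 library left out. Between OIR at P17 and P14 the count of 3 includes Tgfbr3l, which was chosen with its fall in control known. This count was 0 with the lens covariate and 1 with the Y-linked covariate or against 1.5-fold. Between OIR at P30 and P17 the count of 7 was 4 without those 2 libraries, 3 against 1.5-fold and 7 to 8 with 1 library left out.

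Pathway genes called at P14 (2) numbered 10 with no count filter, 6 with DESeq2 or the compared groups alone, 1 with library totals as scaling or the Y-linked covariate, 0 with the lens covariate, the stricter p or the 1.5-fold test and 0 to 3 with 1 library left out. At P17 (15) they numbered 5 with the Y-linked covariate, 6 against 1.5-fold and 11 to 16 with 1 library left out. At P30 (6) they numbered 12 with no count filter, 11 with DESeq2, 3 with the Y-linked covariate, 2 with the stricter p, 0 with the compared groups alone or the 1.5-fold test and 2 to 8 with 1 library left out. Against Pecam1, Cdh5 and Tie1 alone, the OIR minus control difference of relative Eng was -0.0823 at P14 (from 0.139) and 0.0135 at P30 (from -0.00403), both reversed, and 0.331 at P17, and that of Acvrl1 was -0.387 at P14 and -0.293 at P17. The P17 minus P14 difference reversed for Tgfbr1 with the lens covariate (-0.00513) and for Tgfbr3 with the Y-linked covariate (-0.564), and the OIR P17 against P14 change of Acvrl1 with the lens covariate (-0.0944). Another 62 sign changes of log2 fold changes under their SE were not counted as reversals. The difference in Tgfb1 share ranged over 2.52 to 3.76 percentage points at P14, 3.70 to 4.80 at P17 and 0.299 to 1.84 at P30 with 1 library left out. The causes of these changes were not tested.

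Library totals as scaling moved the median of all genes by -0.12 (OIR P17 against P14) and -0.29 (OIR P30 against P17), with 3063 genes higher and 5593 lower in the first and 1916 higher and 7286 lower in the second, against 4412 and 4653, and 4282 and 4172, with TMM. Same-numbered libraries did not deviate together (correlations -0.419 to 0.127). With 2 or 3 libraries a group, these correlations cannot exclude that the numbers pair samples. The replicate block, which left the count of called members at P17 at 5, is given only here. With the P14 numbers crossed, an alternative added after seeing the data, 1 member and 2 pathway genes were called at P14. Tgfbr3l after P14, with 18 to 109 reads per library, is the member that depth limits most.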

Other observations

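Further genes most like the members across the 16 libraries, by Pearson r of log2 CPM among 14407 genes, were as follows. Tgfbi ran most like Mcm3 (r = 0.961), Icam1 (r = 0.939) and Egln3 (r = 0.931). Tgfb2 ran most like Sema6d, a semaphorin (r = 0.969), and Mcl1, a survival factor (r = 0.966). Tgfbr1 ran most like Arid4b, a chromatin protein (r = 0.969), and Top2b, a topoisomerase (r = 0.965). Tgfb3 ran most like Cstf1, an RNA cleavage factor (r = 0.931). Tgfbr3 had the weakest match of the 10 genes, Ahcyl2 at r = 0.806. The points share library, age and depth.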
